A study of Mus musculus with 4 samples.

Results

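Glycolysis and citric acid cycle enzymes are described here by the accessible chromatin at their genes in lymphoid tissue inducer (LTi) cells. The 44 genes were listed by name, covering glycolysis from hexokinase to lactate dehydrogenase, the pyruvate dehydrogenase complex with its kinases, and the citric acid cycle. All 44 were found among 21887 protein-coding genes outside mitochondrial DNA. Of the 16584 accessible islands in the deposited DNase-seq table, 56 had an end of one of these genes as the nearest protein-coding gene end within 50 kb. LTi cells are innate lymphocytes that drive the formation of lymph nodes and Peyer's patches, and DNase-seq maps open chromatin by sequencing DNA freed by the nuclease DNase I.

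The series holds 2 libraries from Tcf7-KO mice, labelled Tcf7fl/fl-RorcCre, and 2 from control mice, labelled Tcf7+/+. Both groups were C57BL/6, the cells came from Peyer's patches, and the sort took Lin-CD127+ cells negative for KLRG1, NK1.1 and NKp46 and positive for CCR6. In the Tcf7-KO mice the floxed allele of Tcf7, which encodes the transcription factor TCF-1, is cut by the Cre that the genotype names, so that deletion is limited to cells that express or have expressed that Cre. The labels name no Cre for the control mice, and the sources used here state no age. For each island the table holds a peak-side and a control-side read count, without any header or label that would tie either of them to a genotype, a library or an input. The Tcf7-KO and control mice are therefore not compared, and each value below describes the table as a whole, without replicates.

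Glycolysis splits glucose into pyruvate in the cytosol and yields a little ATP. Lactate dehydrogenase turns pyruvate into lactate, whereas the pyruvate dehydrogenase complex sends it into the mitochondrion as acetyl-CoA, where the citric acid cycle oxidises it. Many steps have paralogous enzymes that differ in tissue: a muscle, liver, brain or blood cell form beside a widespread one. Activated lymphocytes raise glycolysis, in part through the factors HIF-1 and MYC.

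Across the pathway, 37 of the 44 genes (84.1%) had an island by this rule, against 53.9% of all protein-coding genes. An island lay directly over an annotated start site in 36 of the 43 genes with a start in the RefSeq start table (83.7%), against 46.3% of the 17492 protein-coding genes in that table. These shares are descriptions and were not tested. The lowest peak-side count in the table is 8 reads, so weaker openings than that would go unlisted. The genes without an island by the rule were Pfkm, Pfkfb1, Pfkfb2, Pgam2, Pklr, Pdk3 and Pdk4. For 3 of them (Pfkm, Pfkfb1 and Pfkfb2) an island covered a start site but lay nearer to the end of a neighbouring gene. The other 4 had no island in the gene or within 1 kb of it.

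Of the 56 islands, 35 covered a start site of their gene, 11 lay elsewhere within it, 6 lay outside it and 2 lay over its far end. The island of Eno3 lay over the outermost upstream end of that gene without reaching its start, and that of Idh3a lay over a gene end. In 7 islands an end of another protein-coding gene lay inside as well, so their reads cannot be given to a single gene. The islands held 9 to 54 peak-side reads, with a median of 20.0. The 38 islands over a member's start, whichever gene the rule gave them to, had a median of 28.5 peak-side and 41.5 control-side reads. The 7445 islands over any protein-coding start had medians of 24.0 and 39.0.

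Start-site sequences are shown for the hexokinase, phosphofructokinase, enolase and lactate dehydrogenase families. Each run is the 250 bases upstream of the start in RefSeq, build GRCm38.p6 (the assembly behind mm10), read in the direction of transcription. Capitals mark matches, on either strand, to 4 short motifs. ACGTG is the core of a hypoxia response element, where HIF-1 can bind. CACGTG is an E-box, where MYC can bind, and contains that core. GGGCGG is a GC box, where SP1 and related factors can bind. The last of them is the CCAAT box, where NF-Y can bind. The positions are Hk2 chr6:82774455-82774704 (minus strand), Hk3 chr13:55021386-55021635 (minus strand), Pfkl chr10:78009808-78010057 (minus strand), Pfkm chr15:98108221-98108470 (plus strand), Eno1 chr4:150236458-150236707 (plus strand), Eno2 chr6:124769674-124769923 (minus strand), Eno3 chr11:70656926-70657175 (plus strand), Ldha chr7:46845554-46845803 (plus strand) and Ldhb chr6:142507958-142508207 (minus strand). The starts of Hk3 and Eno3 lay in no island, whereas those of the other 7 genes did.
Hk2: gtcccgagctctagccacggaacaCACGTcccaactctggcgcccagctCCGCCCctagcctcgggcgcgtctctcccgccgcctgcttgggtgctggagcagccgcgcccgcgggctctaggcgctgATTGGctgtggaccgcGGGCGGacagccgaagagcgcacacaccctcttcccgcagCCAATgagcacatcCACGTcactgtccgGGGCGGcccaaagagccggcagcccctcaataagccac
Hk3: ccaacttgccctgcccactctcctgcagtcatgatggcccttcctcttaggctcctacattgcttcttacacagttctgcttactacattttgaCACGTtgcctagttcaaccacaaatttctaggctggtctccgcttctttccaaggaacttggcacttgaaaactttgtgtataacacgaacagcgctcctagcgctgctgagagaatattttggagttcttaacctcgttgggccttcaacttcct
Pfkl: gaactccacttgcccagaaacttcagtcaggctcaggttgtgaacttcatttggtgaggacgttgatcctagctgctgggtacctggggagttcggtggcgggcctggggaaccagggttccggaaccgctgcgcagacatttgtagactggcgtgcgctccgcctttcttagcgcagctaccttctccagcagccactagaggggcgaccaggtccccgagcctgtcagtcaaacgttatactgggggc
Pfkm: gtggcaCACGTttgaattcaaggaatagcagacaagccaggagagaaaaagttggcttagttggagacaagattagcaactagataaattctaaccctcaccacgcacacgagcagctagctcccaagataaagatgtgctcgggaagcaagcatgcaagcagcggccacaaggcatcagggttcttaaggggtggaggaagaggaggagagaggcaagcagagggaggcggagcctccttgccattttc
Eno1: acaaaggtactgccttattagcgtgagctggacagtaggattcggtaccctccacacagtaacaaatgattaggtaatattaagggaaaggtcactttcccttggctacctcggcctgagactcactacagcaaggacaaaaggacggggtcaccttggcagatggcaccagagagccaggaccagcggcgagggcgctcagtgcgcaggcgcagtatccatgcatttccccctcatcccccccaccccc
Eno2: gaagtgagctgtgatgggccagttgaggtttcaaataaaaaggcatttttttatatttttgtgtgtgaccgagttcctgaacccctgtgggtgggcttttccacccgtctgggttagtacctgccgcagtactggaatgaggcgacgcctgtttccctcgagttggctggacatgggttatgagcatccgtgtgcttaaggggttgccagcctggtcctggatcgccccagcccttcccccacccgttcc
Eno3: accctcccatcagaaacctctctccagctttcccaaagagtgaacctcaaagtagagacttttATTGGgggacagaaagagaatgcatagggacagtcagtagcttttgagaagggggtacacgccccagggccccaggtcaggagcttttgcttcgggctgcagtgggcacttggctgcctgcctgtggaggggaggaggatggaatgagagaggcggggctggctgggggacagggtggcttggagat
Ldha: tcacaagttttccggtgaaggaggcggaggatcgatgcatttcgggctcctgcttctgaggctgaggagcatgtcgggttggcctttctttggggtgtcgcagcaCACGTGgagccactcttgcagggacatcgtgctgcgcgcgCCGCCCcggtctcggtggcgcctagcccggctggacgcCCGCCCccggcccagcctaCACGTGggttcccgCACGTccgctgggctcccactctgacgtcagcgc
Ldhb: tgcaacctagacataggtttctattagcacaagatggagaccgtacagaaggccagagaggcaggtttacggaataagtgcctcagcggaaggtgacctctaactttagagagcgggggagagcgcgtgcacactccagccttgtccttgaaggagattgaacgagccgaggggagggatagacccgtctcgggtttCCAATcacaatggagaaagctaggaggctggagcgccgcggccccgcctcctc

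Below, fold is the peak-side count over the control-side count after the authors' scaling of the latter by 0.345. Each fold has an exact (Clopper-Pearson) 95% interval, and each read count an exact Poisson one. Both cover counting error only, since the table holds no replicates. Sequencing reads that carry no molecular identifier cannot be taken as separate molecules, so the intervals may be too narrow even for that. Pairs of read counts are peak-side first and control-side second. An island counts as called at an FDR below 0.05 in the authors' deposited table. By that rule 46 of the 56 islands (82.1%) were called in the authors' deposited table, against 82.3% of all islands, so the share called was near the background. The median fold was 1.94 over the 56 islands and 2.01 over all 16584.

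**Figure D1:**
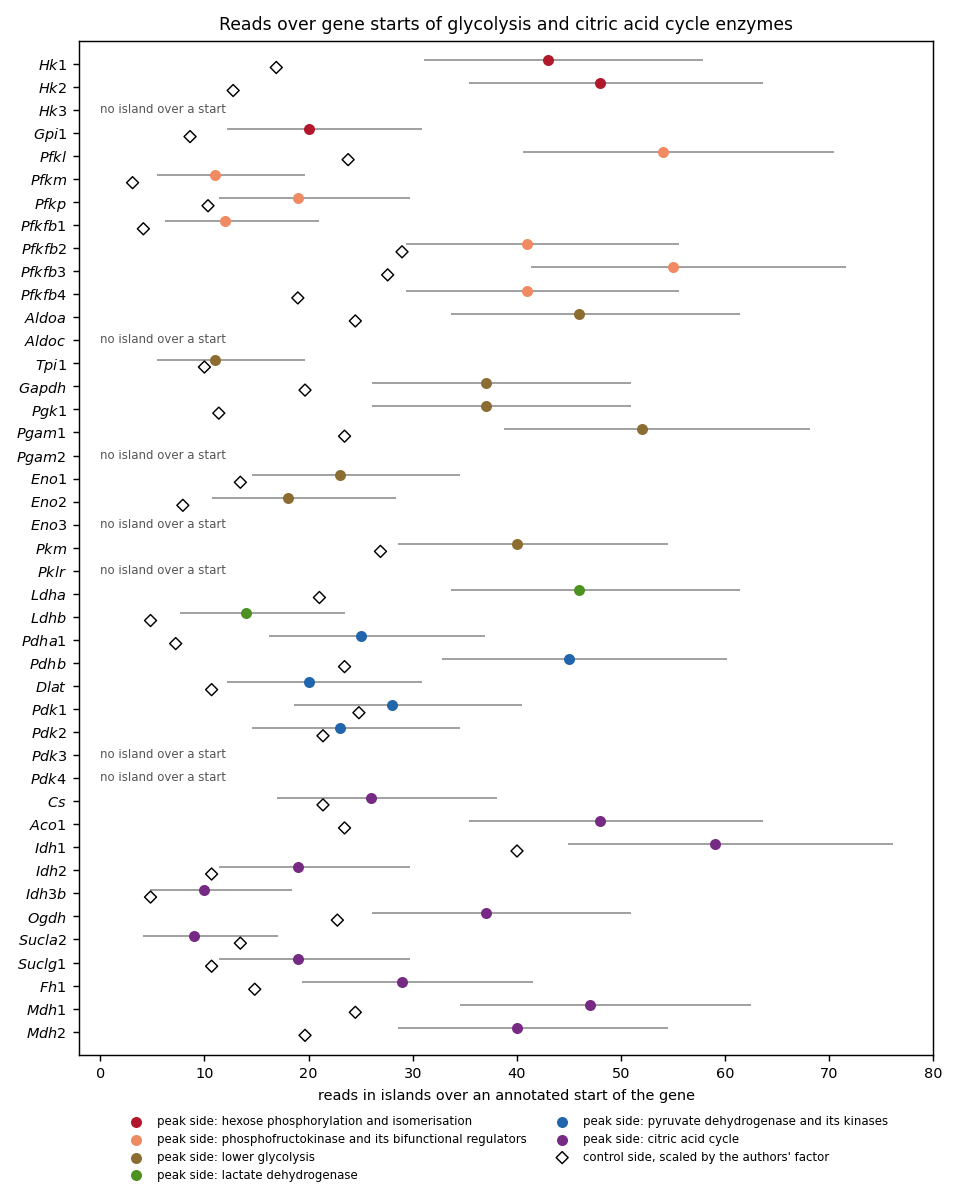
Reads in islands over an annotated start of each gene (horizontal axis, reads summed over the gene's start islands), with peak-side reads as filled circles with 95% Poisson intervals and scaled control-side reads as open diamonds. Idh1, Pfkfb3 and Pfkl had the most peak-side reads (59, 55 and 54), and 7 of the 43 genes shown had no island over a start.

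Hexokinase phosphorylates glucose and so commits it to the cell. Hk2, the inducible form that is raised in activated lymphocytes and tumours, had 3 islands with 73 peak-side reads (interval 57.2 to 91.8) and 69 control-side reads. The one over its start (chromosome 6, 82773201 to 82776200) had 48 peak-side and 37 control-side reads. Its fold of 3.76 (2.40 to 5.94) was higher than that of 98.1% of islands over a protein-coding start. It was the largest fold of the 38 islands over member starts, and its rank was not tested. The other Hk2 islands lay beyond the far end of the gene. The nearer, at 10425 bp, had 9 and 10 reads, and the farther, at 21625 bp, had 16 and 22 reads.

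Hk1, the widespread hexokinase, was open at its inner start and not at its outer one. The inner start (chromosome 10, position 62340421) lay in an island of 43 peak-side and 49 control-side reads with a fold of 2.55 (1.65 to 3.91). The outer start (position 62379908) lay 38908 bp from the nearest island. Near the far end of Hk1 stood an island of 12 and 12 reads. A further one within Hk1 (62326401 to 62328000) lay 51920 bp from the gene's end, just past the limit of the rule, and had 14 and 7 reads with a fold of 5.80 (2.19 to 17.0). Hk3, a form of myeloid cells, had no island over its start, which lay 6385 bp from the nearest one. That island (chromosome 13, 55013401 to 55015000) lay inside Hk3, and its 11 and 8 reads gave a fold of 3.99 (1.46 to 11.4). Start reads of Hk2 and Hk1 differed by less than their counting intervals, 35.4 to 63.6 and 31.1 to 57.9. Gpi1, the isomerase that follows hexokinase, had 20 and 25 reads over its start (fold 2.32, 1.22 to 4.35).

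Phosphofructokinase sets the pace of glycolysis, and of its 3 subunit genes Pfkl had the most peak-side reads over a start. Pfkl, the liver-type subunit, had 54 peak-side and 69 control-side reads over its start (chromosome 10, 78009201 to 78011400), with a fold of 2.27 (1.56 to 3.29). That count was above that of 93.1% of islands over a start. A second Pfkl island, 8994 bp upstream, had 9 and 19 reads and was not called in the authors' deposited table. Pfkp, the platelet-type subunit, had 19 and 30 reads over its start (chromosome 13, 6648601 to 6649200), with a fold of 1.84 (0.977 to 3.37). A second Pfkp island, just inside the gene, had 14 and 21 reads. The Pfkl start interval of 40.6 to 70.5 reads lay above that of Pfkp, 11.4 to 29.7. The Pfkp island was narrower, 600 against 2200 bp for Pfkl, and per kb of island Pfkp had 31.7 and Pfkl 24.5 peak-side reads.

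Pfkm, the muscle-type subunit, had islands that the rule gave to its neighbour Senp1. The first (chromosome 15, 98092801 to 98094000) began 212 bp past the outermost Pfkm start, with 24 and 27 reads. The second (98108201 to 98109400) covered a pair of inner starts and held 11 and 9 reads, a fold of 3.55 (1.34 to 9.68). By start reads Pfkl came first, and the intervals of Pfkp and Pfkm (5.49 to 19.7) overlap.

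The bifunctional enzymes of the Pfkfb family make and remove fructose 2,6-bisphosphate, the strongest activator of phosphofructokinase. Pfkfb3, the form with the highest kinase activity, had 7 islands with 125 peak-side reads (104 to 149) and 164 control-side reads, the most of any gene here. Its inner start (chromosome 2, 11500201 to 11502400) held 37 and 40 reads, a fold of 2.68 (1.67 to 4.30). Its outer start (11552601 to 11554200) held 18 and 40 reads, a fold of 1.31 (0.704 to 2.33). The intervals of these folds overlap. The largest folds of the gene lay between the starts, at 11547401 to 11549600 with 13 and 7 reads (5.39, 2.00 to 15.9) and at 11521001 to 11523800 with 15 and 9 reads (4.83, 1.98 to 12.5). Pfkfb3 thus had islands at both starts, at several places within the gene and, with 20 and 19 reads, 13730 bp upstream of it. Of the 7 islands, 4 passed the FDR threshold in the authors' deposited table, against 82.3% of all islands.

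Pfkfb4, the other widely inducible form, had 41 and 55 reads over its start (chromosome 9, 108991001 to 108992200), a fold of 2.16 (1.41 to 3.30), and 2 further islands of 11 peak-side reads each. Pfkfb2, known from heart, had a start in an island of 41 and 84 reads that covers an end of Yod1 (chromosome 1, 130715401 to 130719600; fold 1.42, 0.950 to 2.08). Pfkfb1, the liver form, had an inner start in an island of 12 and 12 reads that covers an end of Apex2 (chromosome X, 150588201 to 150588800; fold 2.90, 1.19 to 7.06). Because these islands hold a neighbour's end, their reads are not those of Pfkfb2 or Pfkfb1 alone.

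**Figure D2:**
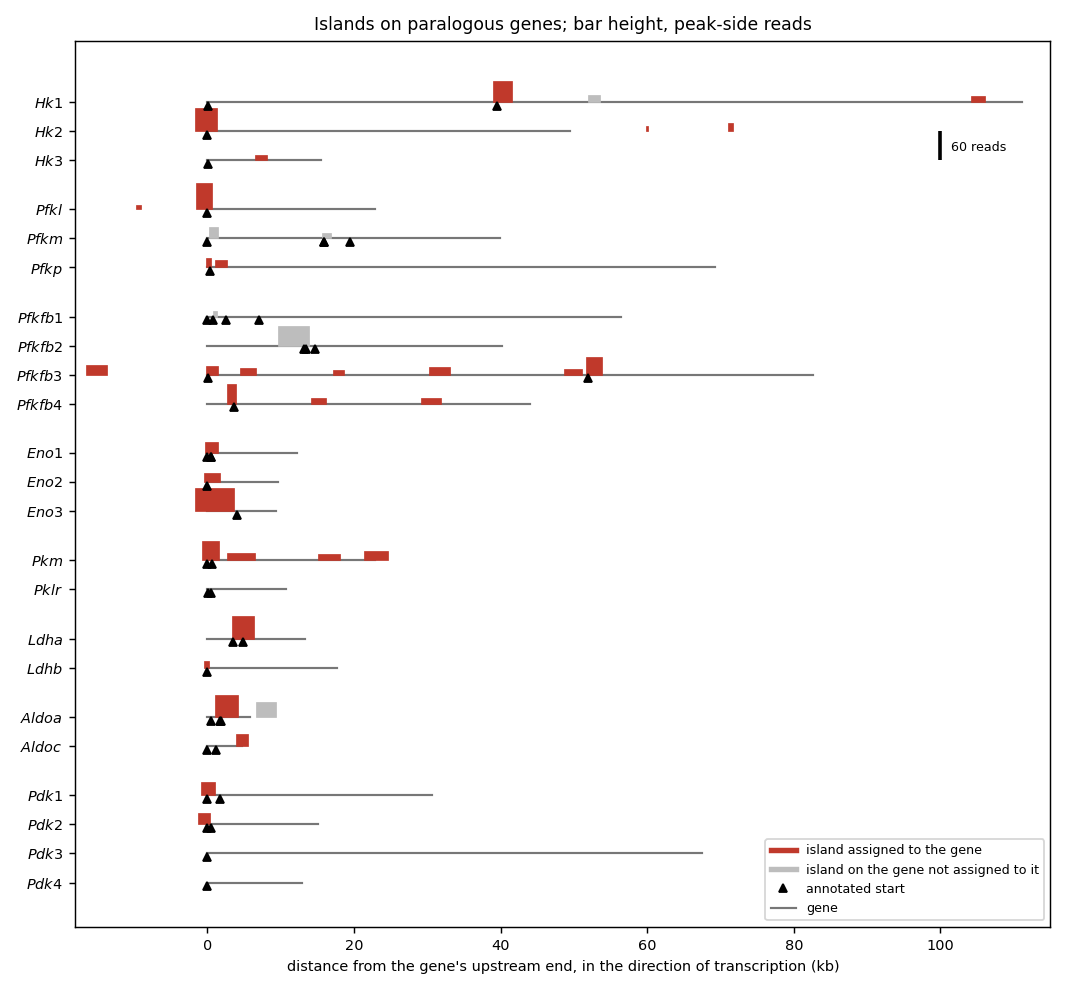
Islands drawn along paralogous genes (horizontal axis, distance in kb from the upstream end of each gene in the direction of transcription). Bar width is the island, bar height its peak-side reads, triangles are annotated starts, and grey bars are islands on the gene or within 1 kb of it that the rule gave to a neighbour or left unassigned. Pfkfb3 had 7 assigned islands, Pfkm, Pfkfb1 and Pfkfb2 had grey bars only, and Pklr, Pdk3 and Pdk4 had no bar.

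In lower glycolysis the widespread paralogue of each family was open at its start. Aldoa, the aldolase of muscle and most other cells, had an island of 46 and 71 reads over its inner starts (chromosome 7, 126796801 to 126800000; fold 1.88, 1.27 to 2.76). Its outermost start lay 447 bp outside that island. Aldoc, the brain form, had an island over its far end only (chromosome 11, 78327001 to 78328600; 26 and 45 reads), which also covers an end of Pigs. The nearest Aldoc start lay 2803 bp away. Pgam1, the widespread phosphoglycerate mutase, had 52 and 68 reads over its start (chromosome 19, 41911201 to 41912800; fold 2.22, 1.52 to 3.23). Pgam2, the muscle form, had no island, and the nearest lay 7196 bp from its start. Pyruvate kinase gave a like picture. Pkm had 4 islands with 89 peak-side and 145 control-side reads, and Pklr, the form of liver and red cells, had none nearer than 27378 bp to a start.

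The island over the Pkm start (chromosome 9, 59655801 to 59658200) held 40 and 78 reads, a fold of 1.49 (0.990 to 2.20). The other Pkm islands held 13 to 20 peak-side reads, with folds of 1.93 to 2.69, and the last covers an end of Gramd2. For enolase the rule gave most reads to Eno3, the muscle form, with 47 and 98 reads. That island (chromosome 11, 70651401 to 70656800) is 5400 bp wide, covers ends of Pfn1 and Rnf167 and stops 376 bp before the Eno3 start. Over starts, Eno1, the widespread enolase, had 23 and 39 reads (chromosome 4, 150236401 to 150238200; fold 1.71, 0.975 to 2.94). Eno2, the neuronal form, had 18 and 23 reads (chromosome 6, 124768001 to 124770200; fold 2.27, 1.15 to 4.40) in an island shared with Lrrc23. Eno1 and Eno2 did not differ beyond their intervals, 14.6 to 34.5 and 10.7 to 28.4 reads.

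The steps without a paralogue here had start islands too. Gapdh, the dehydrogenase that makes NADH, had 37 and 57 reads (fold 1.88, 1.21 to 2.90). Pgk1, the first ATP-making kinase of the pathway, had 37 and 33 reads (chromosome X, 106185801 to 106188200; fold 3.25, 1.98 to 5.37). Tpi1, which interconverts the triose phosphates, had 11 and 29 reads, a fold of 1.10 (0.496 to 2.27) and no call in the authors' deposited table. Several of these genes, Gapdh above all, have processed copies elsewhere in the genome. The sources used here do not say how reads with several matches were treated, so counts at these genes carry that uncertainty.

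Lactate dehydrogenase gave a clear order in reads. Ldha, the subunit that favours lactate production, had 46 peak-side and 61 control-side reads over both of its starts (chromosome 7, 46845601 to 46848600; fold 2.19, 1.46 to 3.26). Ldhb, the heart-type subunit that favours pyruvate, had 14 and 14 reads over its start (chromosome 6, 142507801 to 142508400; fold 2.90, 1.28 to 6.56). The Poisson intervals, 33.7 to 61.4 for Ldha and 7.65 to 23.5 for Ldhb, do not overlap. The Ldha island was 3000 bp wide against 600 bp for Ldhb, and per kb the order turned round, with 15.3 peak-side reads for Ldha and 23.3 for Ldhb. The Ldha run printed above holds 5 matches to the hypoxia core, counted on both strands, and the Ldhb run holds 0. Each of the 2 E-boxes in the Ldha run reads the same on both strands and is counted on each, so the sites are fewer than the matches.

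The pyruvate dehydrogenase complex was open at its subunit genes. Pdha1 (E1 alpha) had 25 and 21 reads over its start (chromosome X, 160136801 to 160138800; fold 3.45, 1.86 to 6.49). Pdhb (E1 beta) had 45 and 68 reads (chromosome 14, 8172401 to 8174600; fold 1.92, 1.29 to 2.84). Dlat (E2) had 20 and 31 reads (chromosome 9, 50658601 to 50660800; fold 1.87, 1.01 to 3.39). In the authors' deposited table all 3 passed the FDR threshold, as did 81.3% of all islands over a protein-coding start.

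The kinases that switch the complex off stood lower in fold. Pdk1, a target of HIF-1, had 28 and 72 reads over a start (chromosome 2, 71872401 to 71874200) and a fold of 1.13 (0.702 to 1.77). Pdk2 had 23 and 62 reads (chromosome 11, 95041001 to 95042600) and a fold of 1.08 (0.636 to 1.76). Neither was called in the authors' deposited table, and both had more control-side reads than the median start island (39.0). Pdk4, the starvation-induced form, and Pdk3 had no island, and the nearest lay 111078 and 289051 bp from their starts. Among the kinases the order in peak-side reads, Pdk1 before Pdk2, was within counting error (18.6 to 40.5 and 14.6 to 34.5).

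Each of the 12 citric acid cycle genes had an island. Aco1, the cytosolic aconitase that doubles as an iron sensor, had 48 and 68 reads over its start (chromosome 4, 40142801 to 40144200; fold 2.05, 1.38 to 3.01), and a second island, 8065 bp upstream, with 10 and 16 reads. Idh1, the cytosolic NADP-dependent isocitrate dehydrogenase, had islands over both starts with 59 and 116 reads in all (pooled fold 1.48, 1.06 to 2.04). One of them, with 18 and 39 reads, also covers an end of Pikfyve and was not called in the authors' deposited table (fold 1.34, 0.721 to 2.40). Idh2, the mitochondrial counterpart, had 19 and 31 reads over its start (chromosome 7, 80113601 to 80115600; fold 1.78, 0.949 to 3.25). The interval of both Idh1 islands together (44.9 to 76.1 reads) lies above that of Idh2 (11.4 to 29.7), but that of the unshared Idh1 island alone, 29.4 to 55.6 around 41 reads, overlaps it.

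The malate dehydrogenases, by contrast, were close together. Cytosolic Mdh1 had 47 and 71 reads over its start (fold 1.92, 1.30 to 2.81), and mitochondrial Mdh2 had 40 and 57 (fold 2.04, 1.32 to 3.10). The Mdh1 island also covers an end of Wdpcp and the Mdh2 island one of Styxl1. A further Mdh2 island past the far end had 12 and 19 reads. Of the NAD-dependent isocitrate dehydrogenase, Idh3a had 27 and 32 reads at a gene end and Idh3b had 10 and 14 reads over its start. Ogdh, the E1 subunit of the oxoglutarate dehydrogenase complex, had 37 and 66 reads over its 6 starts (fold 1.63, 1.06 to 2.47). Fh1 (fumarase) had 29 and 43 reads (fold 1.96, 1.18 to 3.21).

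The weakest folds of the cycle were at its entry and at succinyl-CoA ligase. Cs, the citrate synthase that starts the cycle, had 26 and 62 reads over its start (chromosome 10, 128335801 to 128338600; fold 1.22, 0.738 to 1.95). Sucla2, the ATP-forming subunit of succinyl-CoA ligase, had 9 and 39 reads (chromosome 14, 73552601 to 73553600) and the only fold under 1, at 0.669 (0.285 to 1.40). Its partner Suclg1 had 19 and 31 reads (fold 1.78, 0.949 to 3.25). Cs and Sucla2 were not called in the authors' deposited table. The count of 9 reads lies just above the lowest of the table, 8.

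**Figure D3:**
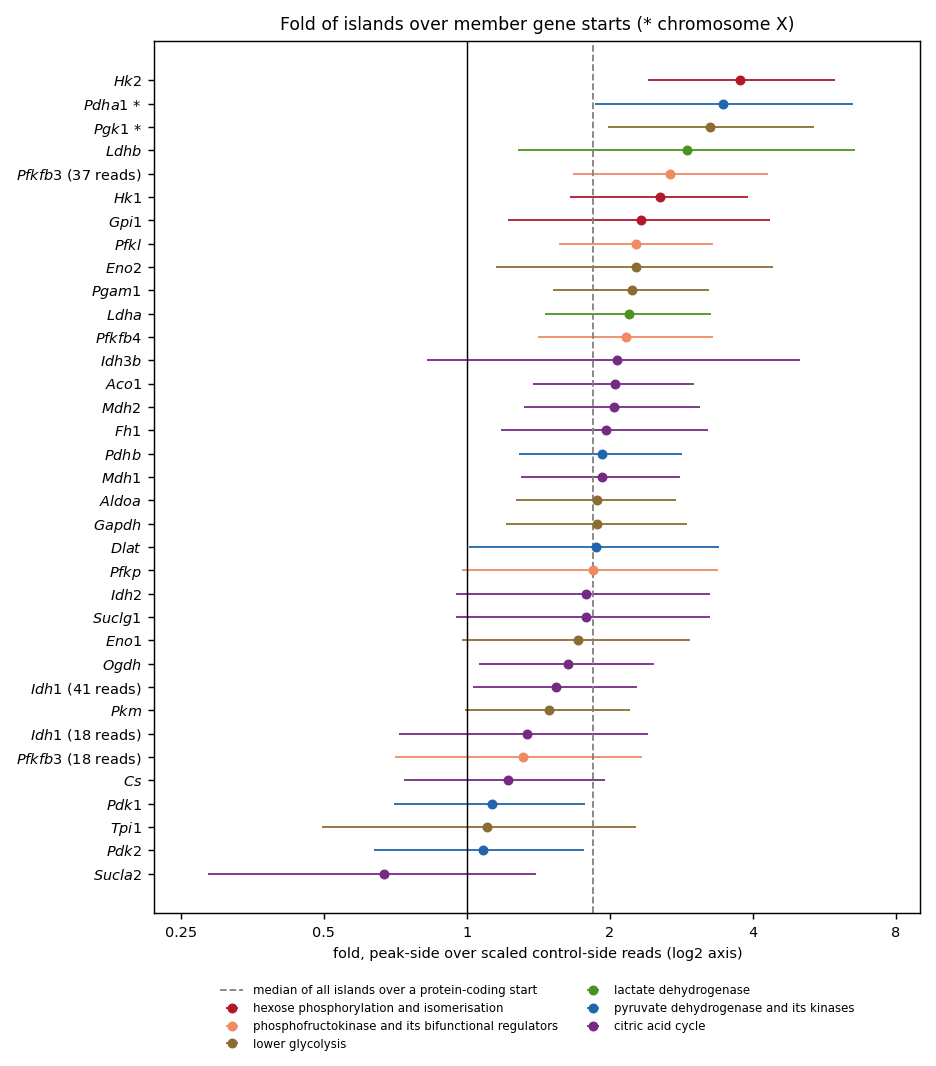
Fold (horizontal log2 axis, peak-side over scaled control-side reads) of the 35 islands over the starts of member genes, with exact 95% counting intervals; an asterisk marks chromosome X. The solid line marks a fold of 1 and the dashed line 1.84, the median of all islands over a protein-coding start; Hk2 stands at the top with 3.76 and Sucla2 at the bottom with 0.669.

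Pooled folds are given by step of the pathway as a description. The 7 islands of the hexokinases and Gpi1 had a pooled fold of 2.83 (2.26 to 3.54). The 14 islands of the Pfk and Pfkfb genes had 2.16 (1.84 to 2.52), the 13 of lower glycolysis 1.84 (1.62 to 2.10), and both of lactate dehydrogenase 2.32 (1.62 to 3.30). The 5 islands of the pyruvate dehydrogenase genes had 1.61 (1.30 to 1.99), and the 15 of the citric acid cycle 1.71 (1.51 to 1.94). All islands of the table pooled to 1.91 (1.90 to 1.92). These sums join islands of different genes and places, so no difference between steps is read from them: 28.6% of islands lay within 1 kb of a gene end in hexose phosphorylation and 73.3% in the citric acid cycle. In the whole table, islands over a start had a median fold of 1.84 and those over none 2.22.

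The open member genes on chromosome X stood high in fold. Pdha1, Pgk1 and Pfkfb1 together had 74 and 66 reads over their starts and a pooled fold of 3.25 (2.30 to 4.60). The 35 start islands of the autosomal members had 1.83 (1.69 to 1.98). The Pfkfb1 island also covers an end of Apex2. In the whole table, start islands on X had a pooled fold of 2.12 (2.02 to 2.23), against 1.82 (1.81 to 1.83) on the autosomes. Their median folds were 2.14 and 1.84. Pdk3, also on X, had no island. The part of the chromosome in these folds was not tested.

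The number of called islands depended on the scaling of the control side. With an FDR under 0.01 in the authors' deposited table, 38 of the 56 islands were called, against 64.2% of all islands. Asking also for a fold above 2 in the authors' deposited table left 27 at an FDR below 0.05, against 50.4%. With the control side rescaled to the sum of reads in islands, 5 were called, against 9.19%. These were the Hk2 start, the islands of Pfkfb3 at 11521001 and 11547401, and the starts of Pgk1 and Pdha1. Scaling by the median ratio left 4, against 6.61%, since Pdha1 no longer passed (FDR 0.0595). Both rescalings set the typical island near a fold of 1 by construction.

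Short motifs upstream of the starts were counted in 1 window per gene, the first listed start inside an island where there was one. The hypoxia core ACGTG stood upstream of 12 of the 36 members with an open start (33.3%), against 23.3% of the 8102 protein-coding genes with an open start. They were Aldoa, Hk2, Ldha, Mdh1, Ogdh, Pdhb, Pdk2, Pfkfb2, Pfkfb3, Pfkm, Pgam1 and Pgk1. The E-box CACGTG, which contains that core, stood upstream of Ldha, Pdk2 and Pfkfb2 (8.33%, against 9.08%). The GC box was found in 63.9%, against 65.3%, and the CCAAT box in 47.2%, against 38.0%.

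The ETS motif CCGGAAG was found in 1 of the 36, Pfkfb1 (2.78%, against 16.3%), and the NRF1 core GCATGCG in Pdhb, Pfkfb4 and Pgam1 (8.33%, against 6.47%). The TCF/LEF cores CTTTGAT and CTTTGAA, the letters that TCF-1 can bind, stood in none of the 36 windows, against 2.23% and 2.99%. Over all 17492 genes in the start table, open or not, the shares were 17.7% for ACGTG, 6.64% for CACGTG, 43.1% for the GC box, 36.3% for CCAAT, 9.21% for CCGGAAG, 3.84% for GCATGCG, 2.85% for CTTTGAT and 4.26% for CTTTGAA. These are letter matches in 250 bases on both strands, not shown to be bound, and the shares were not tested. Open windows of members had a median G and C content of 61.6%, against 61.2% for all open windows.

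**Figure D4:**
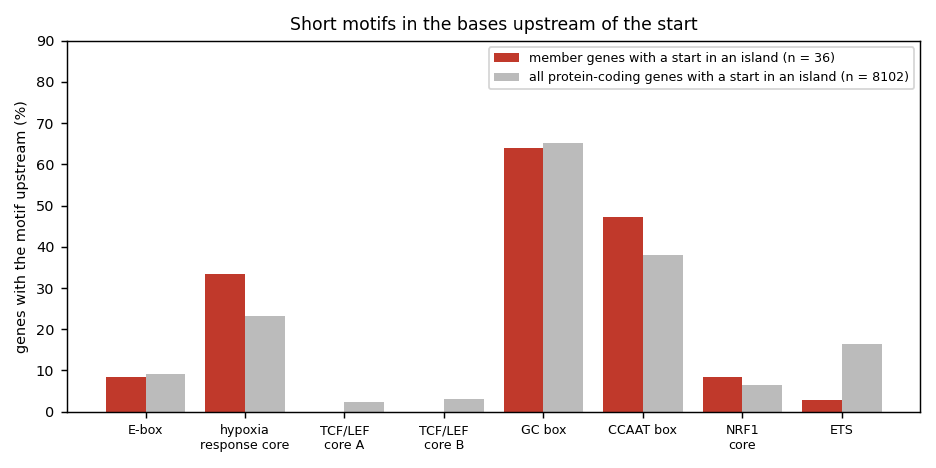
Share of genes (vertical axis, percent) with each short motif in the 250 bases upstream of a start inside an island, for the 36 member genes (red) and for all 8102 protein-coding genes with such a start (grey). The hypoxia response core stood at 33.3% and 23.3%, and ETS at 2.78% and 16.3%.

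Further genes of glucose metabolism, 60 in all, were listed by role. An island was assigned to 51 of the 60, against 53.9% of all protein-coding genes. A called one in the authors' deposited table was assigned to 47, against 46.3%. Of the 48 in the start table, 37 had one over a start, also against 46.3%. None of their islands had a fold under 1, which was rare in the whole table too (277 of 16584 islands). All 11 genes of glucose, lactate and pyruvate transport had an island. Slc2a1, the basal glucose transporter, had 33 and 35 reads over its start (fold 2.73, 1.65 to 4.53). Slc2a3, the high-affinity transporter, had 68 and 69 reads over 5 islands, a pooled fold of 2.86 (2.01 to 4.06), and none over a start. For lactate export, Slc16a1 had 24 and 33 reads over its start, while Slc16a3 had 10 and 6 reads in 1 island. Mpc1 and Mpc2, the mitochondrial pyruvate carrier, had 44 and 66 reads and 64 and 113 reads over their starts.

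Among other enzymes of the same pathways, 21 of 28 genes had an island. Those without included Pck1, which serves gluconeogenesis in the liver, and the testis forms Pgk2, Ldhc and Pdha2. Eno4 also had none by the rule, but an island given to a neighbouring gene covered its start with 17 and 21 reads (fold 2.35, 1.16 to 4.67). Each of the 7 pentose phosphate genes had an island over a start, with G6pdx at 17 and 22 reads and Pgd at 39 and 46. Of 14 regulators 12 had an island. Hif1a had 38 and 81 reads over its start (fold 1.36, 0.900 to 2.02), Mtor had 39 and 40 (fold 2.83, 1.77 to 4.51), and Mlxipl and Prkaa2 had none.

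The cell type markers give the setting of these values. Of 14 LTi and ILC3 genes, 13 had an island and Ccr6, which the sort used, had none by the rule. Among all protein-coding genes the share with an island was 53.9%. Of the defining genes of other cells, 1 of 7 T cell, 2 of 6 B cell, 1 of 6 NK and ILC1, 0 of 4 myeloid and 5 of 6 epithelial and stromal genes had one. Over starts, 8 of the 11 LTi and ILC3 genes in the start table had an island, against 46.3% of all protein-coding genes in it. Of these 29 other-cell genes, 20 had a start in the table, and 0 of the 20 had one in an island. Their part in the values above was not tested.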

How the data were processed

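DNase-seq of sorted LTi cells (2 libraries from Tcf7-KO mice and 2 from control mice) is represented by 1 deposited island table. Per the labels' protocols, a library began with 300 cells and a 5 minute digestion. Bowtie2 2.4.2, SICER 2.0 and build mm10 are named, with no roles, in the submitters' processing notes. Per the file headers, an island has read counts on both sides, a p-value, an FDR and a fold. The deposited read counts are whole and unscaled. The authors' fold is a ratio to scaled control-side reads: all 16584 folds, p-values and FDR values were recomputed within 1e-06 with the control side multiplied by 0.345 and an upper Poisson tail. Library depth is unknown. Islands hold 425134 peak-side and 645087 control-side reads.

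Each island went to the nearest protein-coding gene end within 50 kb (RefSeq, GRCm38.p6), with ties kept. Starts come from the RefSeq promoter table, which holds 43 of the 44 members; Idh3a is the other. Coordinates are 1-based. Python 3.11.15, pandas 2.3.3 and scipy 1.17.1 were used, and the steps were tested on simulated data. The members and lists were chosen with earlier results of these data known. Every member is named, and promoters are shown for the members of most and fewest reads in 4 families, with Eno1 added after values were seen. The planned edgeR comparison of genotypes was not run, as no column is tied to a library. Some listed genes are not reported here by name.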

Additional observations from a re-analysis of the deposited data

How the results depend on the processing

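The number of member genes with an island was 37 and stayed between 28 and 40 under 10 kb, 1 kb, unlimited, gene-body, start-only, called-only, at-least-20-reads and single-gene-per-tie assignment (the last chosen after seeing the data). The count of called islands was 46 with the authors' scaling, 27 with a fold over 2 as well, 5 with the control side scaled by reads in all islands and 4 by the median ratio. The median fold of 1.94 became 1.02 and 0.969 under those scalings, as all islands moved with them by construction (2.01 became 1.05 and 1.00). It kept to between 1.88 and 1.98 in islands of at least 20 reads, near gene ends, in the top island per gene and without chromosome X.

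The paralogue with most peak-side reads was the same in 7 of 11 families when reads were taken per kb, with Pfkfb4, Aldoc, Eno1 and Ldhb then leading. It was the same in 9 by the top island and, an alternative added after seeing the data, by start islands, and in all 11 by control-side reads or by the excess over the scaled control side. Of the 11 leaders by summed reads, 5 lay above the next paralogue beyond counting intervals, 4 did not, and in 2 the next had no island. Over starts these counts were 3 (Pfkl, Ldha and Idh1), 5 and 3. Pfkfb3 was not separate over starts, and Eno3 leads by an island that is shared and misses its start. No paired analysis was possible because neither read column is tied to a numbered library. Leaving out a replicate, the replicate block and DESeq2 scaling were not run for the same reason. At 9 to 54 peak-side reads an island, the counting error alone is wide, as the printed intervals show.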

Other observations

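Further subunits and regulators of pyruvate dehydrogenase had islands. Pdhx, its E3-binding protein, had 108 peak-side and 123 control-side reads over 4 islands (pooled fold 2.55, 1.95 to 3.33). Dld, its E3 subunit, had 47 and 52 reads over its start (fold 2.62, 1.73 to 3.97), and Pdp1, the phosphatase that reverses the Pdk kinases, had 97 and 127 reads over 4 islands (2.22, 1.68 to 2.91). Ldhd, the D-lactate dehydrogenase, had 77 and 96 reads over 3 islands (2.33, 1.70 to 3.17). Of the succinate dehydrogenase subunits, Sdha, Sdhb and Sdhd had 27 and 48, 25 and 41, and 29 and 43 reads over their starts, and Sdhc had 23 and 32 in its island.

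Among members with several annotated starts, 7 of 15 had starts both inside and outside islands. In Hk1 and Aldoa the outermost start lay outside an island and an inner one inside. In Pdk1, Pdk2 and Pfkfb2 it was the reverse, with the outermost start inside and an inner one outside. In Pfkm and Pfkfb1 the starts inside an island lay between starts outside any.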
